A study of Homo sapiens with 4 samples.

Results

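ARP-1 cells carrying a hairpin against MIF were compared with ARP-1 cells carrying a control hairpin. The pair consists of 2 of the 4 arrays of the series and was chosen by title and genotype: the array titled MIF-KO ARP-1 and the array titled CTR-KO ARP-1. The other 2 arrays hold MM.1S cells with the same hairpins. ARP-1 and MM.1S are human lines of multiple myeloma, a cancer of antibody-secreting plasma cells. Both ARP-1 groups were infected with a lentivirus that carries a short hairpin RNA (CTR or MIF) and were then sorted for green fluorescence, so all 4 arrays measure infected, sorted cells, and the name KO stands for a hairpin knockdown. Hairpin sequences, integrations and the time after infection were not known here. Total RNA was labelled for whole-transcript arrays. Each side of the pair is 1 array, so every difference below lacks a replicate check and carries neither an error nor a test. The number of arrays limits the precision.

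MIF is a secreted cytokine that signals through the surface protein CD74 together with CD44, and also binds chemokine receptors of the CXCR family. A short hairpin RNA is cut into a small RNA that directs the matching transcript to degradation. Plasma cells secrete large amounts of immunoglobulin, which makes them dependent on amino acid supply and on protein folding in the endoplasmic reticulum. When amino acids run short or proteins misfold, kinases that modify the initiation factor eIF2 slow translation and favour the making of ATF4, a transcription factor whose targets import and synthesise amino acids and charge transfer RNAs.

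Intensities are linear, 1 value per probe set and array, and a difference is the log2 intensity on MIF-KO ARP-1 minus that on CTR-KO ARP-1. The pair was compared over 7442 of 14884 named genes, those whose mean log2 intensity over the 4 arrays reached the median of all gene means (4.97). Of these, 809 genes (10.9%) were at least 1.5-fold higher on the MIF-KO array and 888 (11.9%) at least 1.5-fold lower. At 2-fold there were 275 higher and 216 lower, and at 4-fold 32 higher and 11 lower. The middle 90% of the differences lay between -0.85 and 0.86, with a median of -0.026 and an SD over genes of 0.54.

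The arrays did not group by cell line. CTR-KO ARP-1 stood apart from MIF-KO ARP-1 (1697 genes at least 1.5-fold apart) and by about as much from CTR-KO MM.1S (1663 genes). It was closer to MIF-KO MM.1S (778 genes) than MIF-KO ARP-1 was to that array (937 genes). The pair with the fewest genes apart came from different lines: CTR-KO MM.1S and MIF-KO ARP-1 differed at least 1.5-fold in 494 genes and at least 4-fold in 2. The MM.1S arrays differed from each other in 596 genes (8.01%). Of the 809 genes higher on MIF-KO ARP-1, the MIF-KO value was the nearer of the ARP-1 values to the MM.1S mean in 604, and of the 888 lower genes in 576. In ARP-1 the short description of each array contradicts its title, calling the control MIF-KO and the reverse. Titles and genotypes were followed here; under the descriptions every ARP-1 sign would turn. Whether line or condition labels are exchanged was not tested.

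**Figure D1:**
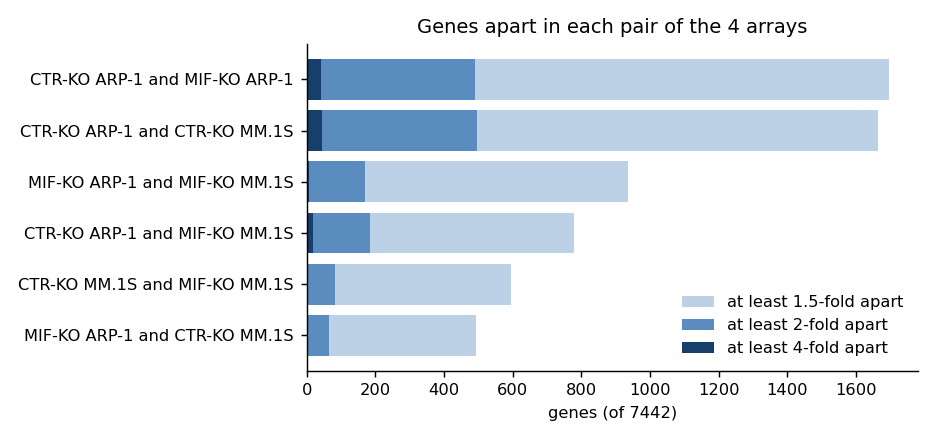
Number of genes (horizontal axis, of 7442) at least 1.5-fold, 2-fold and 4-fold apart in each of the 6 pairs of arrays, as overlaid bars. The ARP-1 pair has 1697 genes at 1.5-fold, and CTR-KO MM.1S with MIF-KO ARP-1 has 494.

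MIF, the target of the hairpin, had an intensity of 1092 on CTR-KO ARP-1 and 541 on MIF-KO ARP-1, which is 49.6% of control (probe set 16928098, difference -1.01). The titles and the target gene thus point the same way. Of the genes listed as receptors or binding partners of MIF, 8 of 12 named members passed the filter. At least 1.5-fold, 2 were higher and 4 lower, against 10.9% and 11.9% of all genes. The list and its 4 lower members include MIF itself. Its median was -0.40 and turned to 0.15 without the filter. CD44, the signalling co-receptor, had intensities of 140 and 76 (-0.89), PRDX1, a peroxidase that binds MIF, 925 and 505 (-0.87), and COPS5, a signalosome subunit that binds MIF, 192 and 110 (-0.80). The chemokine receptor CXCR4 was higher on the MIF-KO array, at 317 and 521 (0.72). DDT, the paralog of MIF, whose probe set can share signal with a near copy, was level at 130 and 129 (-0.012), and the ribosomal protein RPS19 differed by 0.14. TXNIP, which binds and inhibits thioredoxin, had intensities of 287 and 1680 (2.55), among the 20 largest positive differences. CD74 is unnamed here.

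The 20 largest positive differences ran from 2.23 to 3.19 in log2 intensity. CTH, which makes cysteine from cystathionine, had intensities of 104 and 948 on CTR-KO and MIF-KO ARP-1, a 9.13-fold difference (probe set 16666055). SESN2, a leucine sensor that restrains mTORC1, had 119 and 858 (7.2-fold), and STC2, a secreted glycoprotein, 66.6 and 415 (6.24-fold). ASS1, the argininosuccinate synthase of arginine synthesis, stood at 59.8 and 368 (6.16-fold), and PEPD, a peptidase that releases proline from dipeptides, at 19.1 and 94 (4.93-fold). These are all genes of amino acid supply or sensing, apart from STC2.

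The other genes were of mixed function. The vesicle protein SYT11 had intensities of 87 and 755 (8.68-fold) and the endocytic EHD3 of 25.4 and 218 (8.55-fold). BMP4, a secreted growth factor, had 41 and 280 (6.82-fold), the kinase TNIK, which acts in Wnt signalling, 92.2 and 455 (4.94-fold), and the adhesion molecule CNTN1 83.3 and 452 (5.43-fold). ARID5B, a DNA-binding chromatin factor, had 42.8 and 235 (5.49-fold), CALCOCO1, an autophagy receptor, 77.3 and 375 (4.85-fold), and TRIB3, a pseudokinase induced by ATF4, 58 and 272 (4.69-fold). The lipid kinase homologue PIP5KL1 differed by 2.64, the calpain CAPN6 by 2.41, the retrotransposon-derived RTL5 by 2.31 and the non-coding HCP5 by 2.75. LGALS17A (8.27 and 72.9) and NRIP1 (9.57 and 72.8) lay below the median probe set (13.1) on CTR-KO ARP-1, so the size of their differences is uncertain. RTL5 (log2 3.91), PEPD (4.25), EHD3 (4.67), PIP5KL1 (4.73) and CAPN6 (4.88) lay below the filter level of 4.97 on that array. Their sizes are uncertain too.

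The 20 largest negative differences ran from -1.75 to -3.63. ANXA1, a phospholipid-binding annexin, had intensities of 186 on CTR-KO ARP-1 and 15 on MIF-KO ARP-1, 12.4-fold lower (probe set 17085901). The actin-like ACTL8 followed with 258 and 27.5 (9.38-fold), MYOF, a membrane repair protein, with 129 and 20.8 (6.18-fold), and RPP40, a subunit of RNase P, with 148 and 24 (6.15-fold). The lipopolysaccharide receptor TLR4 had 127 and 22.7 (5.57-fold). The 15 of ANXA1 lay close to the median probe set (13.1). On MIF-KO ARP-1, ANXA1 (log2 3.90), MYOF (4.38), TLR4 (4.51), RPP40 (4.58) and ACTL8 (4.78) lay below the filter level of 4.97. The size of these differences is therefore uncertain.

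Next in order were ABTB2, a BTB-domain protein (320 and 64.5, 4.96-fold), and PAK1IP1, which acts in ribosome assembly (327 and 67.8, 4.83-fold). EMP2, a tetraspan membrane protein, had 197 and 46.4 (4.25-fold) and DUSP2, a phosphatase of MAP kinases, 265 and 67.5 (3.93-fold). GLDC, the glycine decarboxylase of the glycine cleavage system, had 1464 and 417 (3.51-fold), and adenosine deaminase ADA 316 and 91.9 (3.44-fold). CDC25A, the phosphatase that activates cyclin-dependent kinases at the start of S phase, closed the 20 at 295 and 87.7 (3.37-fold). The aspartic protease NAPSA differed by -1.91, the natural killer receptor NCR3 by -1.86 and the chymotrypsin-like CTRL by -1.79. NAPSA (log2 4.80) and CTRL (4.78) also lay below the filter level on MIF-KO ARP-1.

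In all 20 genes of the positive group, CTR-KO ARP-1 lay below both MM.1S arrays, and in all 20 of the negative group above both. The genes were chosen by the ARP-1 difference itself, so extreme ARP-1 values were partly built in. MIF-KO ARP-1 lay outside the MM.1S values in 14 and 15 of them. The MM.1S pair differed in the opposite direction in 16 of the positive and 19 of the negative group, by at least 1.5-fold in 12 and 13. In MM.1S, 2.89% of all genes were at least 1.5-fold lower and 5.12% higher.

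**Figure D2:**
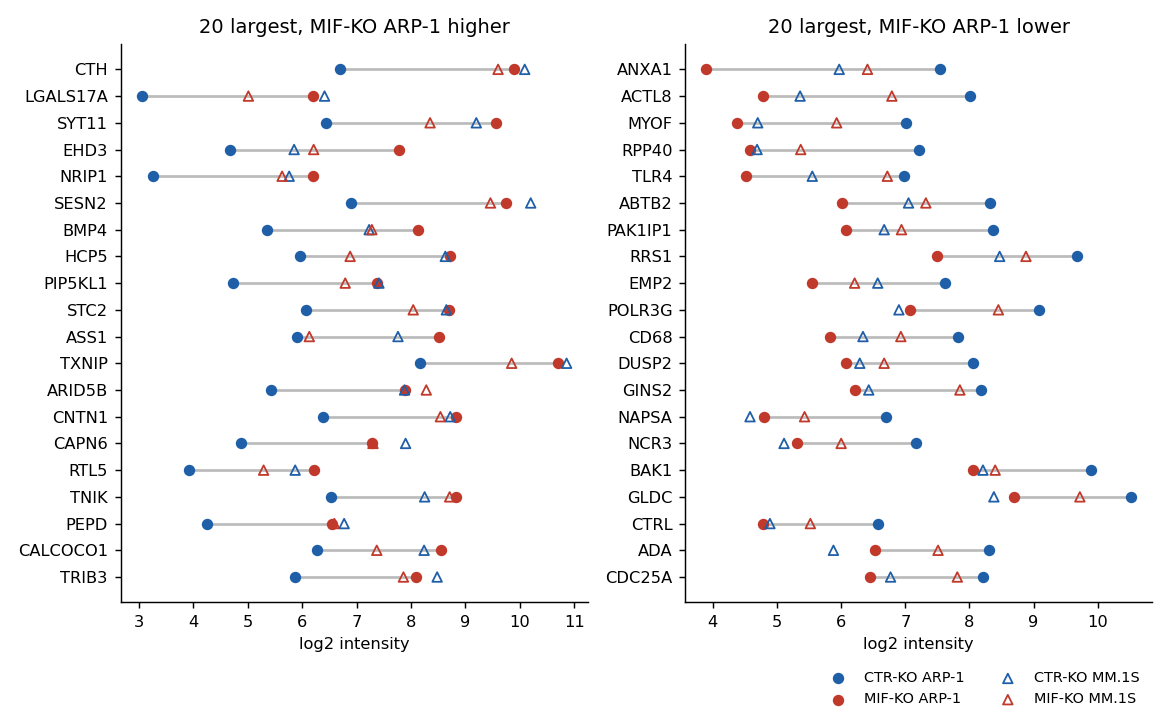
Log2 intensity (horizontal axis) on each of the 4 arrays for the 20 largest positive (left) and 20 largest negative (right) differences in the ARP-1 pair. Filled circles are ARP-1 and open triangles MM.1S, blue for CTR-KO and red for MIF-KO; grey lines join the ARP-1 arrays. CTR-KO ARP-1 lies below both MM.1S arrays in all 20 genes on the left and above both in all 20 on the right.

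Genes of the ATF4 response were mostly higher on the MIF-KO array. Of 13 regulators and targets past the filter, 10 were at least 1.5-fold higher and 0 lower, against 10.9% and 11.9% of all genes. Their median was 1.14, against -0.026 over all 7442 genes. It was 1.93 with the filter at the 75th percentile of gene means, 1.02 without the filter and 0.90 with a pseudocount of 16. Beside SESN2, STC2 and TRIB3, the mTORC1 inhibitor DDIT4 had intensities of 249 and 948 (1.93), the ubiquitin ligase adaptor KLHL24 59.4 and 163 (1.46), the stress factor ATF3 22.5 and 59.5 (1.40), the lipoprotein receptor VLDLR 40 and 88.5 (1.14) and DDIT3, a transcription factor that promotes death under stress, 18 and 36.5 (1.02). ATF4 itself, named after its values were seen, differed by 0.74. The members below 0 were ATF5, a related factor (95.5 and 63.9, -0.58), and EIF2AK3, the eIF2 kinase of the endoplasmic reticulum (272 and 229, -0.25). In MM.1S 0 members were higher at 1.5-fold and 5 lower (5.12% and 2.89% of all genes there), with a median of -0.28.

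Enzymes of amino acid synthesis showed the same side, with a median of 0.89. At least 1.5-fold, 8 of 13 were higher and 0 lower, against 10.9% and 11.9% of all genes. The serine pathway was higher at each of its steps, with PHGDH at 122 and 515 (2.08), PSAT1 at 1313 and 3994 (1.61) and PSPH at 172 and 321 (0.89). ASNS, which makes asparagine, had 126 and 583 (2.21), CBS, which makes cystathionine, 189 and 477 (1.33), and SHMT2, the mitochondrial enzyme that splits serine into glycine and a carbon unit, 186 and 320 (0.78). The exceptions were PYCR3 of proline synthesis (-0.49), ASL, which follows ASS1 in arginine synthesis (166 and 138, -0.27), and the cytosolic SHMT1 (121 and 103, -0.22). The median in MM.1S was -0.086.

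Cytosolic tRNA synthetases, which charge transfer RNAs with amino acids, divided: 7 of 17 were at least 1.5-fold higher, 2 lower and 8 within 1.5-fold (median 0.51). The shares of all genes were 10.9% higher and 11.9% lower. SARS1 for serine had intensities of 183 and 507 (1.47), CARS1 for cysteine 185 and 459 (1.31), AARS1 for alanine 1057 and 2389 (1.18) and GARS1 for glycine 898 and 1960 (1.13). WARS1 differed by 0.89, EPRS1 by 0.82 and MARS1 by 0.73. On the other side stood VARS1 for valine at 533 and 329 (-0.70), KARS1 for lysine at 769 and 486 (-0.66) and RARS1 for arginine at 905 and 615 (-0.56). Amino acid transporters and mitochondrial synthetases have 0 named members here.

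ATF4 binds DNA with C/EBP proteins at an element for which TGATGNAAN was searched on both strands of RefSeq promoters (GRCh38.p14), from 250 bases before to 50 bases after the annotated start. The first listed promoter of 5948 of the 7442 genes was available, and 1.51% of these held the letters. They were found in 6 of 14 tRNA synthetase promoters (42.9%), in 2 of 9 amino acid synthesis promoters and in 1 of 13 promoters of the ATF4 list. Among genes at least 1.5-fold higher the share was 2.54%, and among those lower 0.823%. A match describes the letters of a window and is not a binding site. All 9 matches in these 3 lists are shown; capitals mark the match, read 5′ to 3′ on the gene's strand, where GTTGCATCA and ATTGCATCA are the element on the other strand.
ASNS (chr7:97872448-97872496, minus strand): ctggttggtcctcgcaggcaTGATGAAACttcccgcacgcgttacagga
ATF3 (chr1:212565196-212565244, plus strand): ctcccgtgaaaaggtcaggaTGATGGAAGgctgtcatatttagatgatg
MTHFD1L (chr6:150866337-150866385, plus strand): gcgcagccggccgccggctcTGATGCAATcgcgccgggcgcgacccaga
AARS1 (chr16:70289666-70289714, minus strand): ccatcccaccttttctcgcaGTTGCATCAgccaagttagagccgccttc
CARS1 (chr11:3057418-3057446, minus strand): gcgcgacttccggggcggcgGTTGCATCA
MARS1 (chr12:57488043-57488071, plus strand): gaagcgggaggccggttccgGTTGCATCA
IARS1 (chr9:92293698-92293731, minus strand): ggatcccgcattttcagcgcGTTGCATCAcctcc
NARS1 (chr18:57621794-57621823, minus strand): cTGATGCAACgccggaatcgcggaaaccgc
TARS1 (chr5:33440965-33440994, plus strand): gATTGCATCAgctggtccagccgaggccaa

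The match began 3 bases before the transcript start in CARS1, 5 in MARS1, 14 in IARS1 and 188 in AARS1, and at base 2 of the transcript in TARS1 and base 15 in NARS1. The 6 synthetases with a match differed by 1.31 (CARS1), 1.18 (AARS1), 0.73 (MARS1), 0.58 (IARS1), 0.51 (TARS1) and 0.42 (NARS1), all above 0. IARS1, TARS1 and NARS1 were within 1.5-fold. Over the whole list 13 of 17 synthetases were above 0, and SARS1 (1.47) and GARS1 (1.13), which are not among the matches, differed as much. MTHFD1L, a mitochondrial folate enzyme, differed by 0.37.

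DNA replication genes were lower on the MIF-KO array in all 22 members past the filter, 19 of them at least 1.5-fold and 12 at least 2-fold. The median was -1.04. Among all 7442 genes, 11.9% were at least 1.5-fold lower, and 216 genes at least 2-fold. GINS2, a subunit of the replicative helicase, had intensities of 290 and 73.9 (-1.97), GINS1 420 and 183 (-1.20) and GINS4 175 and 77.6 (-1.17). The fork protection factor TIPIN had 327 and 106 (-1.63), the checkpoint mediator CLSPN 269 and 91 (-1.56) and the helicase loader partner MCM10 732 and 252 (-1.54). Of the MCM ring that unwinds DNA, MCM4 had 1061 and 437 (-1.28) and MCM2 624 and 266 (-1.23), while MCM6, at -0.31, was the smallest difference in the list. In MM.1S all 22 were above 0, 16 of them by at least 1.5-fold (median 0.76), against 5.12% of all genes there.

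Regulators of the passage from G1 into S phase were lower in 16 of 18 members (median -0.59). Of these, 10 were at least 1.5-fold lower, against 11.9% of all genes. After CDC25A came the transcription factor E2F3 at 259 and 87.6 (-1.56), the kinase CDK6 at 1005 and 354 (-1.51), and the S-phase cyclins CCNE2 at 122 and 53.2 (-1.19) and CCNE1 at 230 and 121 (-0.93). E2F8 differed by -0.89, cyclin CCND3 by -0.75 and E2F2 by -0.60. The members above 0 were CCND1 (0.18) and RBL2, a repressor of E2F targets (0.20).

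Nucleotide synthesis followed, with 12 of 20 members at least 1.5-fold lower and 0 higher (median -0.73), against 11.9% and 10.9% of all genes. Beside ADA, CTPS1, which makes CTP, had intensities of 405 and 200 (-1.02), PRPS1, which makes the ribose precursor, 544 and 270 (-1.01), the purine enzyme PFAS 424 and 220 (-0.95) and thymidylate synthase TYMS 1381 and 721 (-0.94). HPRT1 of purine salvage had 406 and 213 (-0.93), DHODH of pyrimidine synthesis 339 and 193 (-0.81) and MTAP 266 and 154 (-0.79). IMPDH1 was level at 344 and 353 (0.041).

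Mitosis genes differed much less. Of 20 members, 18 were below 0, but 0 reached 1.5-fold in either direction (median -0.25), against 22.8% of all genes. The largest differences were cyclin CCNB1 at 691 and 479 (-0.53), the spindle checkpoint kinase TTK at 313 and 221 (-0.51) and BIRC5 at 369 and 270 (-0.45). The mitotic kinase AURKB was at 915 and 955 (0.061) and the motor KIF23 at 685 and 757 (0.14).

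E2F factors switch on replication genes, and their element was searched as TTTGGCGC or TTTCCCGC on both strands. It occurred in 10 of 19 replication promoters (52.6%) and 5 of 13 G1/S promoters (38.5%), against 3.93% of all 5948. Mitosis promoters held it in 1 of 17. Genes at least 1.5-fold lower had it in 7.13% and genes higher in 3.02%. Of the 15 matching genes of both lists, 10 are shown, among them the smallest differences, RBL1 and MCM6; capitals mark the match, as GCGGGAAA or GCGCCAAA where it lies on the other strand.
GINS2 (chr16:85688958-85689005, minus strand): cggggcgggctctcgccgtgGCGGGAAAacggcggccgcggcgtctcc
CLSPN (chr1:35769976-35770003, minus strand): gggacctccactctggctggGCGGGAAA
GINS1 (chr20:25407676-25407705, plus strand): cgGCGCCAAAgcgcggagcggaggccgagg
CDC6 (chr17:40287884-40287913, plus strand): gaTTTGGCGCgagcgcggctggagtttgct
MCM7 (chr7:100101557-100101604, minus strand): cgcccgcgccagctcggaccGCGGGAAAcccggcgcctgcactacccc
PCNA (chr20:5126654-5126701, minus strand): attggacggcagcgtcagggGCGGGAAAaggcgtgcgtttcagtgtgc
CDC25A (chr3:48188434-48188481, minus strand): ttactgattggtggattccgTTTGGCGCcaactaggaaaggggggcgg
MCM6 (chr2:135876568-135876615, minus strand): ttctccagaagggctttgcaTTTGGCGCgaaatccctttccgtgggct
RBL1 (chr20:37095998-37096033, minus strand): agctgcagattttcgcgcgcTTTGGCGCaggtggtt
E2F3 (chr6:20401806-20401853, plus strand): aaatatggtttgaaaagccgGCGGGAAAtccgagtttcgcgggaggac

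The differences of these genes spanned -1.97 for GINS2 to -0.19 for RBL1, with PCNA, the clamp of the polymerases, at -0.72, CDC6, which loads the helicase at origins, at -1.12 and MCM7 at -0.87. MCM6 holds 2 matches and differed by -0.31, so a match did not go with a large difference in every member.

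**Figure D3:**
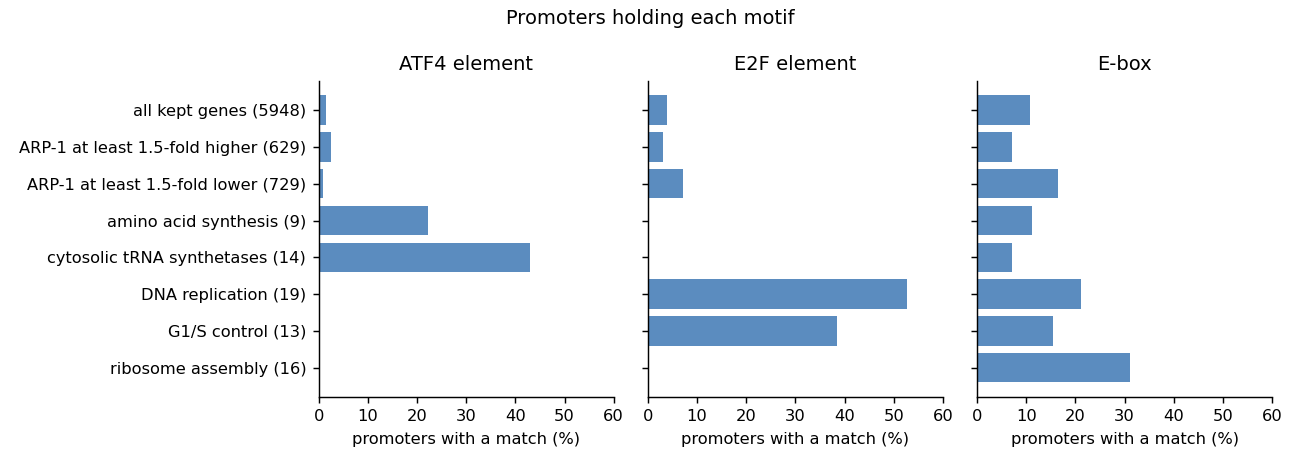
Share of promoters (horizontal axis, percent of the number in brackets) with a match to the ATF4 element, the E2F element and the E-box, for all genes past the filter, for genes at least 1.5-fold higher or lower in the ARP-1 pair, and for 5 lists. The ATF4 element is in 42.9% of tRNA synthetase promoters against 1.51% of all, and the E2F element in 52.6% of replication promoters against 3.93%.

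Nucleolar factors of ribosome assembly were lower in 23 of 24 members, 17 of them by at least 1.5-fold and 8 by at least 2-fold (median -0.84). Among all 7442 genes, 11.9% were at least 1.5-fold lower, and 216 genes at least 2-fold. RRS1 had intensities of 812 and 181 (-2.17), LYAR 190 and 62.4 (-1.60), NOP16 432 and 167 (-1.37), RRP12 511 and 197 (-1.37) and NOP14, of the small-subunit processome, 816 and 320 (-1.35). NPM3 differed by -1.17, TCOF1, which acts in ribosomal RNA transcription, by -1.16 and RRP1B by -1.12. The exception was MYC, the transcription factor that drives many of these genes, with 1169 and 1308 (0.16). MYC binds the E-box, searched as CACGTG, which reads the same on both strands: 5 of 16 promoters of the list held it (31.2%), against 10.7% of all, 16.5% of genes at least 1.5-fold lower and 7.15% of genes higher. Counting any listed promoter of a gene, it was in 8 of 16, against 13.3% of all. The 5 genes differed by -1.35 (NOP14), -0.63 (WDR43), -0.59 (NOP2), -0.55 (BYSL) and -0.38 (FBL). All but NOP14 differed by less than the list median. The E-box is shown for NOP14 and WDR43, the largest differences of the 5.
NOP14 (chr4:2963366-2963395, minus strand): ccggCACGTGtcttagggtagcgcgcgcct
WDR43 (chr2:28894666-28894695, plus strand): cgaaCACGTGgctgcagcggggccagagca

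RNA polymerase III, which makes transfer RNAs and the 5S ribosomal RNA, has 5 named subunits here, and 18 of the 25 members of the polymerase I and III list are unnamed. POLR3G had intensities of 541 and 135, 4.01-fold lower, while its paralog POLR3GL, which takes the same place in the enzyme, was at 81.4 and 110 (0.44). POLR3E was at 280 and 197 (-0.51), POLR3B at 295 and 239 (-0.30), POLR3C at 1057 and 1269 (0.26) and MAF1, the repressor of the polymerase, at 146 and 199 (0.45). The polymerase I subunit POLR1F had 318 and 165 (-0.94). Of these 7 genes, 2 were at least 1.5-fold lower (median -0.30), against 11.9% of all genes.

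RNase P, which trims the front end of transfer RNA precursors, shares its protein subunits with RNase MRP of ribosomal RNA processing. All 6 named subunits were below 0, and 3 were at least 1.5-fold lower (median -0.59). After RPP40 came RPP21 at 521 and 168 (-1.63) and RPP30 at 188 and 120 (-0.65). RPP25 (-0.54), RPP14 (-0.45) and RPP38 (-0.23) were within 1.5-fold.

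Mitochondrial ribosomal proteins lay below 0 in 67 of 72 members, mostly by small amounts (median -0.39). Of the 72, 21 were at least 1.5-fold lower and 1 higher, against 11.9% and 10.9% of all genes. MRPS12 had intensities of 228 and 87.6 (-1.38), MRPL15 726 and 311 (-1.22), MRPS25 211 and 99.1 (-1.09) and MRPS7 522 and 254 (-1.04). The members furthest above 0 were MRPS14 at 110 and 170 (0.62) and MRPS21 at 1130 and 1571 (0.47). Of the mitochondrial carriers 1 of 34 is named here, the ornithine carrier SLC25A15, with 107 and 45.8 (-1.22).

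**Figure D4:**
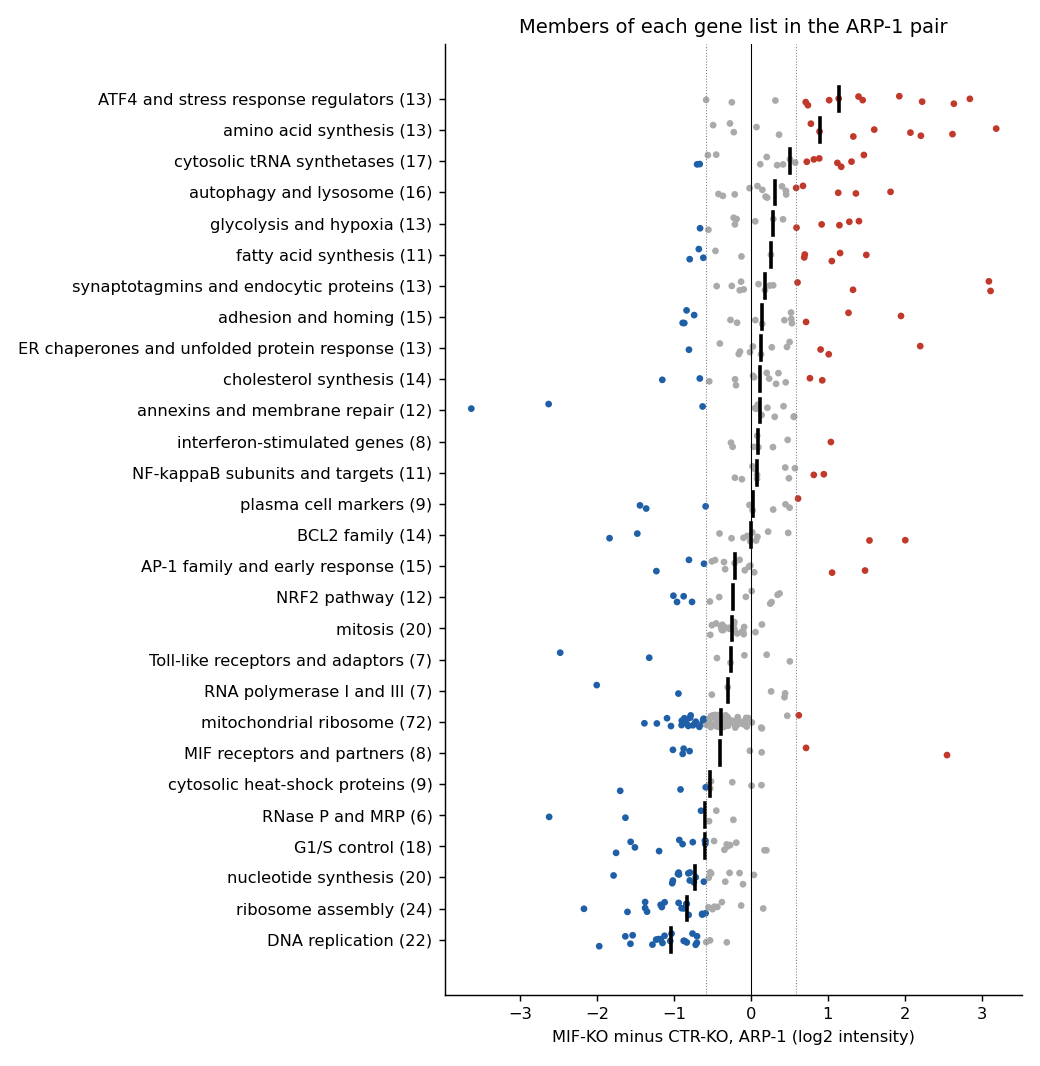
Difference between MIF-KO and CTR-KO ARP-1 (horizontal axis, log2 intensity) for each member past the filter of the lists with at least 5 such members; the number is in brackets. Black bars are list medians, dotted lines mark 1.5-fold, and points are red (at least 1.5-fold higher), blue (lower) or grey. The medians span 1.14 for the ATF4 list to -1.04 for DNA replication.

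Fatty acid genes lay on both sides. Of 11, 5 were at least 1.5-fold higher and 3 lower, against 10.9% and 11.9% of all genes. The median was 0.26, which turned to -0.46 with the filter at the 75th percentile of gene means. The desaturases FADS1 (38.7 and 110, 2.83-fold) and SCD (1938 and 3153, 0.70), the regulator SREBF1 (109 and 245, 1.16), the acetyl-CoA synthetase ACSS2 (30.4 and 63.2, 1.05) and the elongase ELOVL5 (149 and 242, 0.70) were higher. The enzymes that build the saturated chain were lower: fatty acid synthase FASN had 226 and 141 (-0.68), acetyl-CoA carboxylase ACACA 222 and 145 (-0.62) and the elongase ELOVL6 236 and 136 (-0.79). In cholesterol synthesis 2 of 14 were higher and 2 lower (median 0.12), near the 10.9% and 11.9% of all genes. INSIG1, which retains the sterol sensor, had 960 and 1829 (0.93) and the regulator SREBF2 363 and 618 (0.77), whereas the thiolase ACAT2 had 243 and 109 (-1.15) and NSDHL 311 and 197 (-0.66).

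Among glycolysis and hypoxia genes, 5 of 13 were at least 1.5-fold higher and 1 lower, against 10.9% and 11.9% of all genes. The median was 0.29, or 0.058 without the filter. Those higher were responders to low oxygen rather than enzymes of glycolysis. NDRG1 had intensities of 31.3 and 82.9 (1.41), the angiogenic factor VEGFA 89.4 and 217 (1.28), the peptide hormone ADM 145 and 323 (1.15), the mitophagy receptor BNIP3L 591 and 1118 (0.92) and the oxygen sensor EGLN1 163 and 247 (0.59). Of the enzymes, PGAM1 was at 687 and 435 (-0.66), hexokinase HK2 at 103 and 70.3 (-0.55), GAPDH at 164 and 141 (-0.22) and TPI1 at 70.1 and 93.7 (0.42).

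Of the sensors of the unfolded protein response, a single member was at least 1.5-fold apart. ERN1, the kinase and nuclease that splices XBP1, had intensities of 115 and 528, 4.61-fold higher, and its substrate XBP1 930 and 1321 (0.51). The sensor ATF6 was at 599 and 829 (0.47), and EIF2AK3, given above, at -0.25. SEL1L of the degradation pathway (888 and 1667, 0.91) and the oxidase ERO1B (32.6 and 65.9, 1.01) were also higher. The chaperone CALR was at 4501 and 3405 (-0.40), HYOU1 at 815 and 985 (0.27) and SDF2L1 at 371 and 212 (-0.80). Of the 13 members, 3 were at least 1.5-fold higher and 1 lower (median 0.13), against 10.9% and 11.9% of all genes.

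Cytosolic heat-shock proteins were lower in 7 of 9 members, 3 by at least 1.5-fold (median -0.53), against 11.9% of all genes. HSPH1 had 800 and 247 (-1.70), the co-chaperone STIP1 457 and 243 (-0.91) and HSPB1 3944 and 2628 (-0.59). The paralogs HSPA1A (-0.52) and HSPA1B (-0.53) are so alike that their probe sets can share signal. HSPD1 was level at 519 and 523 (0.01).

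Autophagy and lysosome genes were at least 1.5-fold higher in 5 of 16 members and lower in 0 (median 0.31). The shares of all genes were 10.9% and 11.9%. The autophagy receptor OPTN had 98.8 and 348 (1.82), GABARAPL1 of the autophagosome membrane 110 and 284 (1.37) and the cathepsins CTSZ 65.4 and 144 (1.14) and CTSB 66.2 and 106 (0.68). The transcription factor TFE3, which drives lysosomal genes, had 156 and 234 (0.59). NRF2 pathway genes were at least 1.5-fold lower in 4 of 12 and higher in 0, against 11.9% and 10.9% of all genes. The median was -0.24, or -0.41 with the stricter filter. The lower genes were heme oxygenase HMOX1 (371 and 185, -1.01), PRDX1, and TKT (941 and 484, -0.96) and PGD (601 and 354, -0.76) of the pentose phosphate pathway. NFE2L2, which encodes NRF2, was at 172 and 223 (0.37) and TXNRD1 at 164 and 196 (0.25).

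The BCL2 family, which sets the threshold for apoptosis at the mitochondrion, had 2 of 14 members at least 1.5-fold higher and 2 lower, near the shares of all genes (10.9% and 11.9%), and a median of 0.0072. BCL2, which blocks death, had intensities of 200 and 807 (2.01), and BCL2L11, which promotes it by binding BCL2, had 44.2 and 129 (1.54). BAK1, which forms the pore, had 946 and 265 (-1.84), and the survival protein BCL2A1 61.4 and 22.1 (-1.48). Each direction held a survival and a death member. The other 10, among them PMAIP1 (0.49), BID (-0.41), BAX (-0.25) and BBC3 (0.23), were within 1.5-fold.

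Signalling lists are set beside the 22.8% of all genes at least 1.5-fold apart in either direction. Of 11 NF-kappaB subunits and targets, CYLD, a deubiquitinase that restrains the pathway (111 and 214, 0.95), and the chemokine CCL3 (226 and 399, 0.82) were at least 1.5-fold higher and 0 lower. The subunits NFKB2 (0.57), RELB (0.50), RELA (0.081), REL (0.022) and NFKB1 (-0.12) were within 1.5-fold. In the AP-1 and early response list, 5 of 15 were apart: JUN had 168 and 469 (1.49) and ETV5 45.8 and 95.2 (1.06), while FOSL1 had 97.6 and 41.7 (-1.23), IER3 80.7 and 46.2 (-0.80) and the phosphatase DUSP5 806 and 529 (-0.61). Interferon-stimulated genes passed the filter in 8 of 20 named members, and 1 was at least 1.5-fold apart: IRF9, the DNA-binding part of the interferon complex, with 63.2 and 130 (1.04). ISG15 was at 105 and 87.7 (-0.26). Of antigen presentation, TAPBP (0.43) and B2M (0.47) are the only genes named here.

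Of the Toll-like receptors and adaptors, 7 of 20 named members passed the filter. Of these 7, 2 were at least 1.5-fold apart, against 22.8% of all genes. Both were lower: TLR4 and IRAK2, a kinase downstream of it (61.3 and 24.6, -1.32). The adaptor MYD88 was at 148 and 124 (-0.26). Among annexins and membrane repair genes, 3 of the 12 past the filter were at least 1.5-fold apart, near the 22.8% of all genes: ANXA1, MYOF and, to a smaller extent, ANXA6 (1927 and 1248, -0.63). ANXA5 (0.43), ANXA4 (0.31), ANXA11 (0.22), ANXA7 (0.091), ANXA2 (0.07) and ANXA8 (0.055), which can share signal with its near copies, were within 1.5-fold, as were S100A10 and S100A11 (0.56 each). Among synaptotagmins and endocytic proteins, 4 of 13 were higher and 0 lower, against 10.9% and 11.9% of all genes. These were SYT11, EHD3, REPS2 (16.5 and 41.5, 1.33) and SYT1 (36.9 and 56.2, 0.61). SYT11 and EHD3 are among the 20 largest positive differences, and the list was chosen with earlier results of these data known, so its count is no independent result. The same holds for the Toll-like receptor and annexin lists, with TLR4, ANXA1 and MYOF among the 20 largest negative differences. EHD4, a paralog of EHD3, was at 314 and 285 (-0.14).

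The plasma cell identity of both ARP-1 arrays was checked on its defining markers. All 7 named markers passed the filter, with a summed intensity of 5814 on CTR-KO and 6856 on MIF-KO ARP-1. IRF4, the master regulator of myeloma cells, had 3579 and 4380 (0.29) and so made up most of each sum. MZB1 had 566 and 774 (0.45), SLAMF7 120 and 122 (0.024) and the dim POU2AF1 34.9 and 34.4 (-0.017). The surface markers SDC1 and CD38 differed more: SDC1, the syndecan by which plasma cells are sorted, had 471 and 184 (-1.36) and CD38 113 and 41.8 (-1.44). CD28 had 2084 and 3191 (0.61). Over the wider list of 9, 1 was at least 1.5-fold higher and 3 lower, against 10.9% and 11.9% of all genes.

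Defining markers of other cells were mostly below the filter. The B cell markers PAX5 (24 and 25.5) and CD22 (9.55 and 8.86) failed the filter, as did 3 of the 4 named defining T and NK cell markers, GNLY (45.7 and 52.2) being the exception. Of 5 named defining myeloid markers, CD14, LYZ, CSF1R and MPO failed it, at 7.94, 7.07, 19.2 and 10.9 on CTR-KO and 9.59, 6.99, 18.6 and 11.1 on MIF-KO ARP-1. CD68, a lysosomal glycoprotein, passed, at 227 and 56.9 (-1.99), and it set the summed myeloid intensity of 272 and 103. Of the epithelial markers KRT18, which has many pseudogenes that can share signal, passed (161 and 166), and EPCAM (8.14 and 7.96) did not. On wider lists of such markers, 8 of 35 named members passed the filter. They included SPIB (47.5 and 35.7), CD8A (52.1 and 41.8), ZAP70 (43 and 32.7) and S100A9 (37.8 and 40.9), which were dim, and VIM, an intermediate filament of stromal and blood cells, which was bright at 1160 and 1104. Of these 8, CD68 alone was at least 1.5-fold apart.

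In adhesion and homing, 3 of 15 genes were at least 1.5-fold higher and 4 lower (median 0.15, or 0.48 with the stricter filter). Over all genes the shares were 10.9% and 11.9%. NCAM1, the CD56 antigen of many myelomas, had 90.9 and 352 (1.95), and ALCAM, a ligand of CD6, 64 and 154 (1.27). CXCR4 was the third. The lower genes were CD44, the chemokine receptors CXCR3 (48.6 and 26.7, -0.86) and CCR1 (461 and 258, -0.83) and the sphingosine receptor S1PR1 (118 and 70.9, -0.74). GPR183, an oxysterol receptor, was within 1.5-fold (35.1 and 50.8, 0.53).

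Lists were also read array by array. Relative to each gene's mean over the 4 arrays, the median of the ATF4 list was -0.97 on CTR-KO ARP-1 and between 0.14 and 0.53 on the other arrays. The median of amino acid synthesis was -0.74 there and between 0.20 and 0.26 elsewhere. For tRNA synthetases the values were -0.47 against 0.067 to 0.22. The replication list was at 0.49 on CTR-KO ARP-1 and 0.41 on MIF-KO MM.1S, with MIF-KO ARP-1 at -0.53 and the remaining array at -0.32. Ribosome assembly was at 0.51 on CTR-KO ARP-1 and 0.096 on MIF-KO MM.1S, with -0.32 on MIF-KO ARP-1 and -0.33 on the remaining array. RNase P and MRP subunits had the outlying array on the other side, with MIF-KO ARP-1 at -0.43 and the others between -0.05 and 0.22. The ATF4 and amino acid lists thus set CTR-KO ARP-1 apart, whereas the replication list parted the arrays into 2 pairs that cross line and condition. For ribosome assembly MIF-KO MM.1S lay between CTR-KO ARP-1 and the low arrays. What sets CTR-KO ARP-1 apart was not tested.

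**Figure D5:**
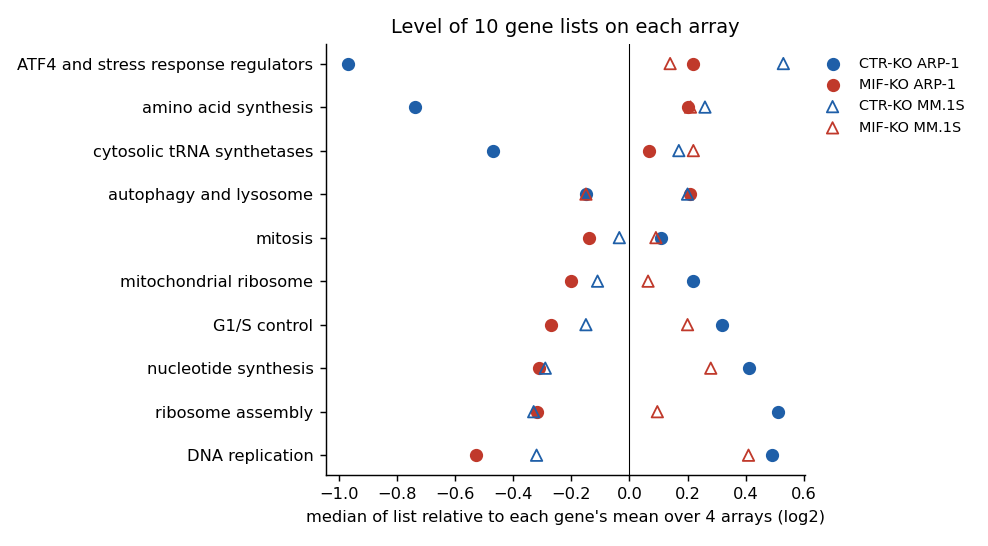
Median of 10 gene lists on each array (horizontal axis, log2 relative to each gene's mean over the 4 arrays). Filled circles are ARP-1 and open triangles MM.1S, blue for CTR-KO and red for MIF-KO. CTR-KO ARP-1 is alone at -0.97 for the ATF4 list, while for DNA replication it lies at 0.49 beside MIF-KO MM.1S at 0.41.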

How the data were processed

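The authors deposited 1 linear intensity for each of 53617 probe sets and 4 arrays. Per the submitters' processing notes, RMA and limma were used; their versions, roles and order, and the genome build, were not stated. The values ran from 2.74 to 15935, so log2 was taken, with no pseudocount. A platform annotation names 16098 probe sets (14884 genes, symbols updated through RefSeq); 37519 are unnamed here. For the 779 genes with several probe sets, the one with the highest mean was used. Genes at or above the median of gene means were kept (7442). With 1 array per side no test was made; counts at 1.5-fold, differences and list medians are descriptions, computed in Python 3.11.15 and checked on simulated data. Median intensities were 13.1 to 13.3 on the 4 arrays.

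Named genes are MIF, the 20 largest differences per direction, and per list up to 8 members by size and 3 of opposite sign (all in lists of up to 12); microRNAs, long intergenic and antisense RNAs, open reading frames and Y-linked genes were left out. Genes named for a promoter match follow the match. Members and lists were chosen with earlier results of these data known, so list counts are no independent results. Alternatives covered scaling, filter, probe set and pseudocount.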

Additional observations from a re-analysis of the deposited data

Results flagged for a closer look

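Among lists with at least 5 members past the filter, 7 had an ARP-1 median beyond 1.5-fold and an MM.1S median of the opposite sign. Opposite directions also prevailed over all genes apart in both lines. Of the 809 genes higher in ARP-1, 122 were at least 1.5-fold lower and 2 higher in MM.1S. The 888 genes lower in ARP-1 included 241 higher and 4 lower in MM.1S at that threshold. The difference between lines was not tested, since each line has 1 array per condition. The medians in ARP-1 and MM.1S were 1.14 and -0.28 for the ATF4 list, 0.89 and -0.086 for amino acid synthesis, -1.04 and 0.76 for DNA replication, -0.59 and 0.45 for G1/S control, -0.73 and 0.50 for nucleotide synthesis, -0.84 and 0.40 for ribosome assembly, and -0.59 and 0.33 for RNase P and MRP.

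Of the 40 genes with the largest ARP-1 differences, 12 differed at least 2-fold the other way in MM.1S, again without a test. Among all 7442 genes, 46 were at least 2-fold higher and 36 lower in MM.1S. Those higher on the MIF-KO array in ARP-1 were LGALS17A (3.14 in ARP-1 and -1.41 in MM.1S), HCP5 (2.75 and -1.75), ASS1 (2.62 and -1.63) and TXNIP (2.55 and -1.01). Those lower were ACTL8 (-3.23 and 1.43), MYOF (-2.63 and 1.24), TLR4 (-2.48 and 1.17), POLR3G (-2.00 and 1.55), GINS2 (-1.97 and 1.42), GLDC (-1.81 and 1.34), ADA (-1.78 and 1.63) and CDC25A (-1.75 and 1.04).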

How the results depend on the processing

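Shifting the arrays to the same median, quantile normalization and loess on mean intensity left every count within 1.5 times its main value and every list median within 0.1 (log2). A filter at the 75th percentile of gene means kept 372 genes higher and 558 lower. It moved the medians of the ATF4 list to 1.93, amino acid synthesis to 1.33, RNA polymerase I and III to -0.40, the NRF2 pathway to -0.41, NF-kappaB to 0.29, plasma cell markers to 0.37, adhesion to 0.48, annexins to 0.26 and endocytic proteins to 0.074, and turned fatty acid synthesis to -0.46. Without a filter the ATF4 list was at 1.02, amino acid synthesis at 1.05 and glycolysis and hypoxia at 0.058, while Toll-like receptors turned to 0.06 and MIF partners to 0.15. Averaging probe sets gave 1.05 for amino acid synthesis, and a pseudocount of 16 gave 0.90 for the ATF4 list. The filters test other sets of genes; the cause of the other shifts was not tested. Counting any listed promoter, chosen after seeing the data, gave shares of 2.42% (ATF4 element), 4.72% (E2F element) and 13.3% (E-box) over all genes. No paired analysis was possible because the ARP-1 comparison has 1 array per side; a fit over both lines with line as a block asks for a shared effect and was not run. Dim probe sets have no detection call here.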

Other observations

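Shares of genes apart in the ARP-1 pair differed by chromosome, with no test. Genes at least 1.5-fold lower made up 19.2% of the 370 genes past the filter on chromosome 6, 18.4% of 244 on chromosome 8 and 18.3% of 126 on chromosome 13, against 11.9% over all. The median difference was lowest on chromosome 13, at -0.21, followed by -0.12 on chromosome 6. Genes at least 1.5-fold higher were most frequent on chromosome 1, at 15.8% of 704, against 10.9% over all. In MM.1S the median on chromosome 13 was 0.11 and on chromosome 6 it was 0.02. RPP40, PAK1IP1, BAK1, NCR3 and RPP21 are among the lower genes on chromosome 6. This look at chromosomes was chosen after seeing the data.

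Unnamed probe sets carried differences as well: of 9408 past the same filter, 1117 were at least 1.5-fold higher and 1204 lower on MIF-KO ARP-1, and 49 and 24 at 4-fold.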
